A study of Sparus aurata with 9 samples.

Results

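Heat shock proteins and chaperonins are the proteins that fold other proteins and keep them from clumping, and the genes for them were examined here in the white muscle of gilthead seabream (Sparus aurata). The members were chosen by their descriptions in the deposited tables, which had to contain heat shock, T-complex 1 subunit, chaperonin or unc-45, or to begin with DnaJ, and 220 of 61849 gene models met this rule. The rule itself used no measured value, but it was set with earlier results of these data known. Expression was measured by RNAseq in 9 fish, each a separate animal from 1 commercial farm. The controls were 3 fish kept at minimal flow, and the others were 3 fish induced to swim at 1 body length per second (1 BL/s) and 3 fish induced to swim at 2 body lengths per second (2 BL/s), all for 8 months. The swimming fish are called the 1 BL group and the 2 BL group. The fish were juveniles at the start, no strain or exact age was given for them, and similar sized fish of normal shape were picked for RNAseq. Each group was held in a tank of its own, so that an effect of swimming and an effect of the tank cannot be told apart.

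Chaperones work as a chain. Small heat shock proteins hold unfolding proteins without using ATP, the 70 kDa heat shock proteins bind exposed stretches of a chain in cycles of ATP use that DnaJ co-chaperones start, the 90 kDa proteins finish the folding of selected clients, and the barrel-shaped chaperonin T-complex 1 of the cytosol folds actin and tubulin. In striated muscle the folding of the myosin motor is known from worms and zebrafish to need the 90 kDa protein together with unc-45, and heat shock factors switch many of these genes on when proteins unfold. Muscle is a tissue in which several small heat shock proteins are abundant and in which contraction is known to strain the filaments they protect.

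The 220 gene models comprised 127 DnaJ proteins, 25 proteins of the 70 kDa class, 22 heat shock factors and their binding proteins, 13 subunits of T-complex 1, 12 small heat shock proteins, 7 of the 90 kDa class, 2 activators of the 90 kDa ATPase, 3 mitochondrial chaperonins, 3 unc-45 proteins, 5 models of a chaperonin of the Bardet-Biedl syndrome type and 1 partial heat shock entry. Counts, here whole fragments assigned to a gene model, were recorded for 66 of them in at least 1 fish, and 154 were listed at 0 in all 9 fish. A filter on low counts was passed by 38 members in each of the 3 comparisons, 18 of them DnaJ proteins, 6 of the 70 kDa class, 6 subunits of T-complex 1, 4 small heat shock proteins, 2 of the 90 kDa class and 2 ATPase activators. The other 28 members with counts held 1 to 78 fragments over all fish together. Members received between 0.347% and 0.419% of all counts of a fish, or 0.365% ± 0.00603 in control fish, 0.376% ± 0.0250 in the 1 BL group and 0.397% ± 0.0199 in the 2 BL group (SD, n = 3 each). Scaled by the library factors described below, their summed counts were 16895 ± 852, 17739 ± 3704 and 15641 ± 1382 in the same groups. The share and the scaled sum thus ordered the groups differently.

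**Figure D1:**
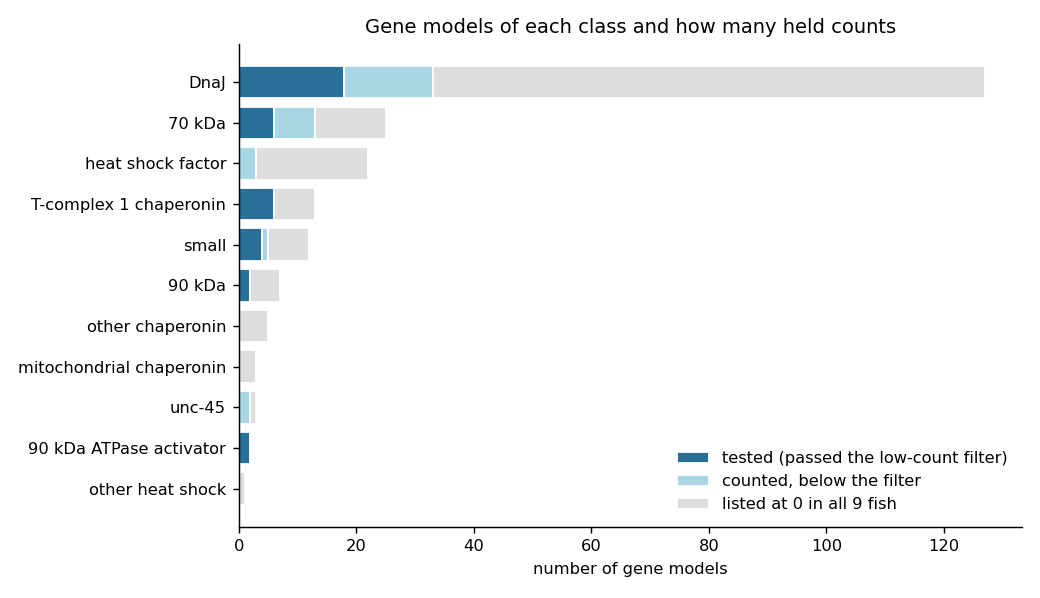
Number of gene models in each class (horizontal bars, split by colour into members tested, members with counts below the filter, and members listed at 0 in all 9 fish). Of 127 DnaJ models 18 were tested and 94 were listed at 0, and no heat shock factor, mitochondrial chaperonin or unc-45 protein passed the filter.

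Many members that every cell uses were among those listed at 0. These were all 5 models of HSP 90-beta, the constitutive 90 kDa protein of the cytosol, the 60 kDa and 10 kDa proteins that form the chaperonin of mitochondria, heat shock factor 1 with 5 models and heat shock factor 2 with 7, and the epsilon, zeta and theta subunits of T-complex 1, which is built from 8 different subunits. Identifiers of the gene models have 3 parts, and zeros were frequent where several models shared the first 2. Of 151 members that shared them with at least 1 other model, 12 had a count (7.95%), and these 12 held 113 of the 150193 fragments of all members. Of 69 members with no such partner, 54 had a count (78.3%) and together held 150080 fragments. Among those without a count were the 60 kDa mitochondrial protein, the epsilon and zeta subunits and a heat shock factor 2 model (Sa_8656.4.1). All gene models showed the same split, with counts in 7.62% of 43386 models that shared the first parts and in 60.4% of 18463 that did not. A zero was therefore read only as listed at 0, and its cause was not tested. Unc-45 homolog B, the form known from zebrafish muscle, was such a case, as its 2 models held 1 fragment in all.

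Depth was between 3660245 and 5267310 counts per fish, and the members' values in single fish carry these limits. Over all tested gene models, fish 3 in the 1 BL group lay far from the rest, with a score of 53.7 on principal component 1 (30.6% of the variance), when no other fish scored above -0.18. Markers of red blood cells, of which 5 of 20 gene models had counts and the beta-A hemoglobin was listed at 0, summed to 985 normalized counts in that fish, against 123 to 234 in control fish, 261 and 300.0 in the other fish in the 1 BL group and 127 to 352 in the 2 BL group. Leukocyte markers (8 of 18 with counts) summed to 261 to 408 in control fish, 535 to 692 in the 1 BL group and 286 to 644 in the 2 BL group. Slow and red muscle markers (9 of 23 with counts, myoglobin listed at 0) summed to 549 in fish 2 in the 2 BL group and to 4.57 to 60.2 in all other fish. Fast muscle markers summed to 1023239 to 1284387 in control fish and 1014823 to 1353283 in the 1 BL group. In the 2 BL group they summed to 1084446, 817169 and 855314, so fish 2 and 3 of that group were the lowest. Skin and epithelium markers had counts in 25 of 78 models. They summed to 1773 to 3357 in control fish, 2238 to 3221 in the 1 BL group and 2095 to 3687 in the 2 BL group. Fish 3 in the 2 BL group was the highest, followed by control fish 2. Nerve markers (7 of 29 with counts) summed to 646 to 910 and adipocyte markers (1 of 7) to 16.1 to 40.8 in all fish. The part of these cells in the results for chaperones was not tested, and in bulk muscle fewer cells of a type and less RNA per cell cannot be told apart.

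The groups were compared in pairs with edgeR's quasi-likelihood test, fitted over all gene models that passed the filter, and p-values were taken unadjusted at 0.05 and after Benjamini-Hochberg adjustment, of which the first is the more lenient. Comparisons of 1 and 2 BL/s with the controls share the same 3 control fish and are not independent of each other. After adjustment no member passed in any comparison (0 of 38), as 0% of all gene models did, and DESeq2 gave 0 members as well. The smallest adjusted p of a member was 0.966 for 1 BL group vs. control fish, 0.996 for 2 BL group vs. control fish and 0.897 for 2 BL vs. 1 BL group.

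For 1 BL group vs. control fish, 0 of 38 members passed the unadjusted threshold with edgeR, while 4.02% of all 3902 gene models tested did (1.97% higher and 2.05% lower in the 1 BL group). DESeq2, run without the filter, also called 0 members, when 1.29% of 13206 gene models passed. The median log2 fold change of the members was 0.12, with 22 above 0 and 16 below, and that of all gene models was -0.01. Leaving out fish 3 in the 1 BL group moved the median of the members to -0.01. Values of the 2 groups did not overlap for 1 member that was higher and 1 that was lower in the 1 BL group, and 6.25% and 4.66% of all gene models were separated in these directions.

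For 2 BL group vs. control fish, 2 of 38 members passed, 1 higher (DnaJ homolog subfamily C member 21) and 1 lower (heat shock cognate 71 kDa-like), and 4.46% of all 3947 gene models did (1.75% higher and 2.71% lower). With DESeq2 only the second of them passed, when 1.23% of 13468 gene models did. Members had a median log2 fold change of -0.00, with 17 above 0 and 21 below, and the median of all gene models was also -0.00. Non-overlapping values were found for 2 members that were higher and 0 that were lower, against 4.21% and 5.17% of all gene models.

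For 2 BL vs. 1 BL group, 0 of 38 members passed with edgeR, and 4.24% of all 3963 gene models did (1.97% higher and 2.27% lower in the 2 BL group). DESeq2 called 0 members here, when 1.3% of 13388 gene models passed. The median was -0.03 for the members, with 18 above 0 and 20 below, and 0.03 for all gene models. Only 1 member was separated between the groups, lower in the 2 BL group, and 0 were separated in the other direction, against 6.41% and 4.67% of all gene models. The shares of members that passed lay close to those of all gene models in each comparison, and they give no result particular to the chaperones.

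**Figure D2:**
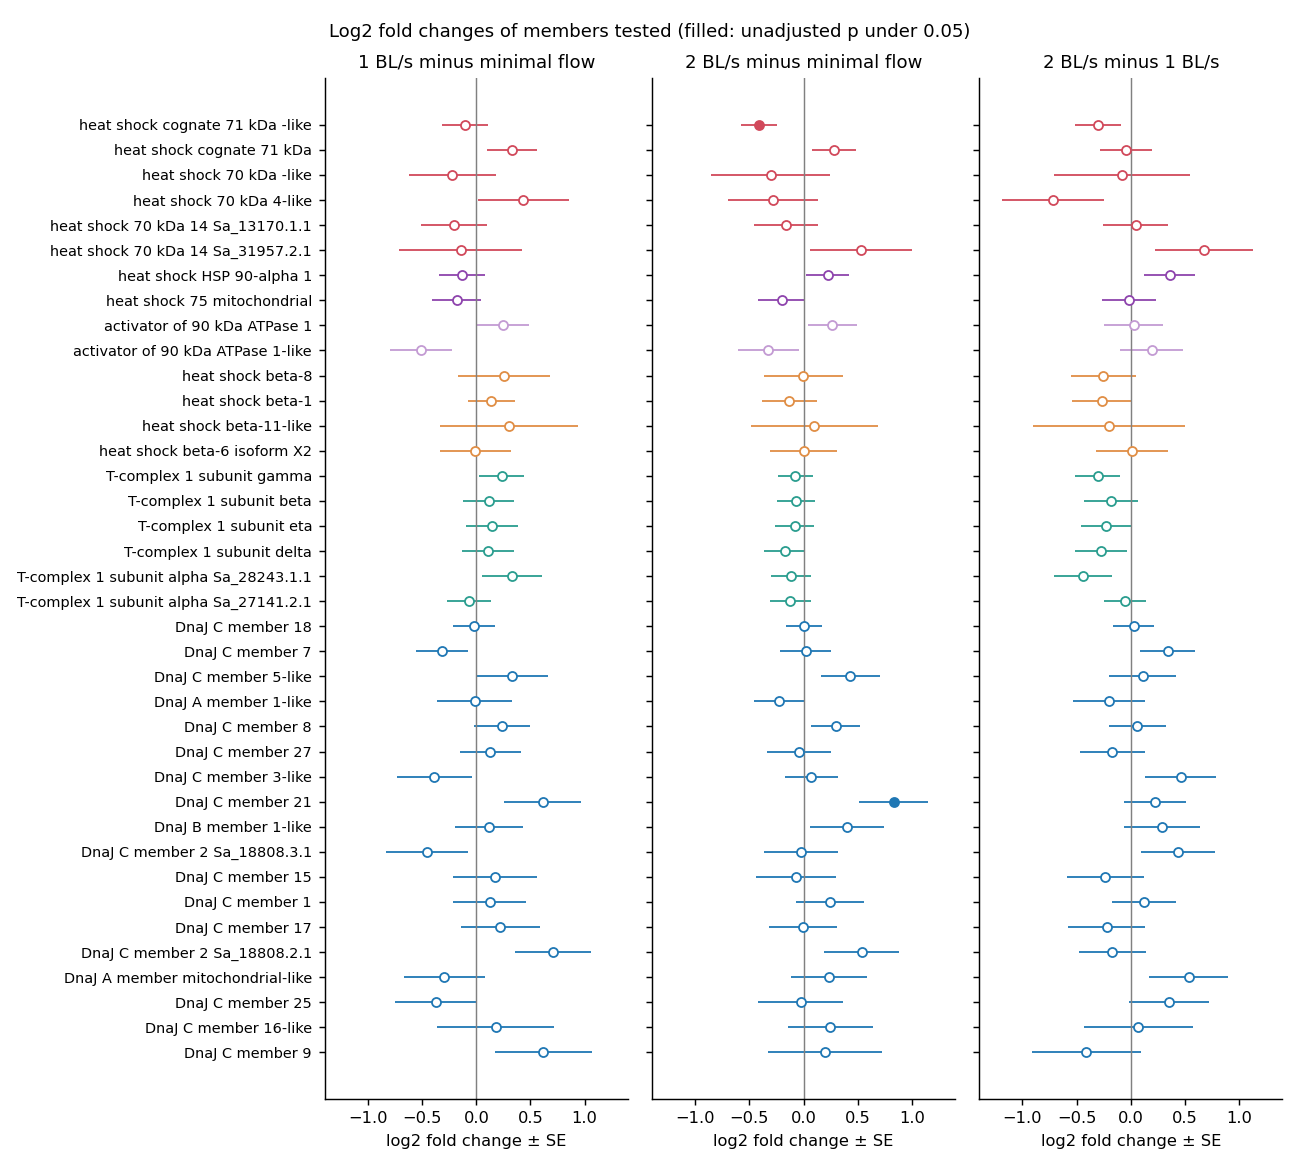
Log2 fold changes of the 38 members tested (points, horizontal bars ± SE from edgeR, n = 3 fish per group) in the 3 comparisons of groups, coloured by class, with filled points for an unadjusted p under 0.05. The 2 filled points, heat shock cognate 71 kDa-like at -0.41 and DnaJ C21 at 0.83, are in the comparison of 2 BL/s with the controls.

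Values of single fish are given as normalized counts, that is counts divided by a library factor (edgeR's TMM factor times the total count) with a geometric mean of 1 over the 9 fish. They are not divided by gene length and so compare fish, not genes. The factor did not follow the total count alone. In fish 3 in the 1 BL group, with 4187722 counts in all, 4938 fragments of heat shock cognate 71 kDa-like became 6608 normalized counts. In fish 3 in the 2 BL group, with 4165037 counts in all, 3861 fragments became 3527. Fish of a group are named 1 to 3 as in the labels and have no order.

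The 70 kDa class held the member with the most fragments. Heat shock cognate 71 kDa-like (Sa_18802.3.1), a constitutive 70 kDa chaperone of the cytosol, took 29.8% of all fragments of the members. Its normalized counts were 5861, 4659 and 6139 in control fish, 4273, 4939 and 6608 in the 1 BL group and 4156, 4770 and 3527 in the 2 BL group. The 2 lowest values belonged to fish in the 2 BL group, but the highest fish of that group lay above control fish 2, so the groups overlapped. The mean fell from 5553 ± 787 in control fish to 4151 ± 622 in the 2 BL group (SD, n = 3), a log2 fold change of -0.41 (SE 0.17) that passed the unadjusted threshold (edgeR adjusted p = 0.996). Before scaling it held 5780, 4303 and 6864 fragments in control fish, out of 4820369, 3969381 and 5267310 counts in all. In the 2 BL group it held 4364, 4797 and 3861, out of 4605448, 3660245 and 4165037. By these numbers, as a share of all counts, fish 2 of the 2 BL group lay above every control and fish 1 and 3 below every control. The mean share was still lower in the 2 BL group, but by less than on library factors. The fall is thus given on library factors and depends on them in size, and scaling by total counts was not tested. At 1 BL/s the mean was 5273 ± 1203 and the log2 fold change -0.10 (SE 0.21, edgeR adjusted p = 0.972). The call in the 2 BL group was lost without control fish 1 or 3 and without fish 1 or 3 of the 2 BL group, with log2 fold changes between -0.52 and -0.32 when any 1 fish was left out.

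The other cognate with counts, heat shock cognate 71 kDa (Sa_337.1.1), had 883, 1071 and 835 normalized counts in control fish, 938, 1104 and 1536 in the 1 BL group and 1001, 994 and 1361 in the 2 BL group. Fish 3 was the highest at both speeds, and at each speed at least 1 fish lay below control fish 2. Its log2 fold changes, 0.33 (SE 0.23) in the 1 BL group and 0.28 (SE 0.20) in the 2 BL group, had the opposite sign to those of the first cognate and did not pass (edgeR adjusted p = 0.966 and adjusted p = 0.996). Coding sequences of 70 kDa genes are known to be much alike, and how reads that match several of them equally were counted, once secondary alignments had been removed, was not stated by any source used here, so both values are uncertain to that extent. A further 2 models described as heat shock cognate 71 kDa-like were listed at 0.

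Heat shock 70 kDa-like (Sa_7782.2.1), whose description does not say whether it is an inducible form, varied far more between fish of a group. It had 156, 129 and 93.0 normalized counts in control fish, 54.6, 103 and 178 in the 1 BL group and 215, 53.7 and 37.5 in the 2 BL group. Fish 1 in the 2 BL group was the highest of the 9 fish, and the other fish of its group were lower than every other fish. With all fish the log2 fold change at 2 BL group vs. control fish was -0.30 (SE 0.55, edgeR adjusted p = 0.996). Without fish 1 in the 2 BL group it was -1.45 (SE 0.32, edgeR adjusted p = 0.593), and against the 1 BL group it went from -0.08 to -1.23 (edgeR adjusted p = 0.897), both past the unadjusted threshold. With any 1 fish left out, these log2 fold changes ranged from -1.45 to 0.08 and from -1.23 to 0.38. The SD within groups, on the log2 scale, was 0.92, higher than that of 92.8% of all tested gene models.

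Heat shock 70 kDa 4-like (Sa_53482.3.1) belongs to the larger relatives of the 70 kDa proteins that release ADP from them. Values were 61.9, 109 and 57.2 in control fish, 56.3, 162 and 95.0 in the 1 BL group and 34.3, 51.7 and 98.6 in the 2 BL group. Fish 2 in the 1 BL group stood highest and the 3 groups overlapped. For 2 BL vs. 1 BL group the log2 fold change was -0.72 (SE 0.47, edgeR adjusted p = 0.897), and without fish 3 in the 2 BL group it was -1.27 and passed unadjusted (edgeR adjusted p = 0.985). Its range with any 1 fish left out was -1.27 to -0.24.

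Heat shock 70 kDa 14, a form known to act at the ribosome in human cells, had 2 models that did not move alike. Sa_31957.2.1 had 17.2, 10.8 and 5.37 normalized counts in control fish, 14.7, 7.11 and 8.03 in the 1 BL group and 19.1, 16.9 and 11.9 in the 2 BL group, with overlap between all groups. Its log2 fold change for 2 BL vs. 1 BL group was 0.68 (SE 0.45, edgeR adjusted p = 0.897), whereas that of Sa_13170.1.1, with values between 22.9 and 36.7 in all 9 fish, was 0.04 (SE 0.30, edgeR adjusted p = 0.985). Below the filter with all fish, heat shock 70 kDa 12A isoform X7 (Sa_22846.1.1) held 17 fragments in control fish, 15 in the 1 BL group and 36 in the 2 BL group. Of the last, 7, 12 and 17 were in the single fish. Without fish 1 in the 2 BL group it passed the filter, through the 12 and 17 fragments in the other fish of that group alone. It then also passed the unadjusted threshold, but on the same values, so this call is no support for a difference. Its log2 fold changes were then 1.31 against the controls (edgeR adjusted p = 0.747) and 1.45 against the 1 BL group (edgeR adjusted p = 0.897). This model was singled out after its values were seen. Of the 6 members of the class tested, 4 had log2 fold changes below 0 and 2 above at each speed against the controls, and 1 passed. Of all gene models, 2011 of 3902 were below 0 in the 1 BL group and 1977 of 3947 in the 2 BL group.

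**Figure D3:**
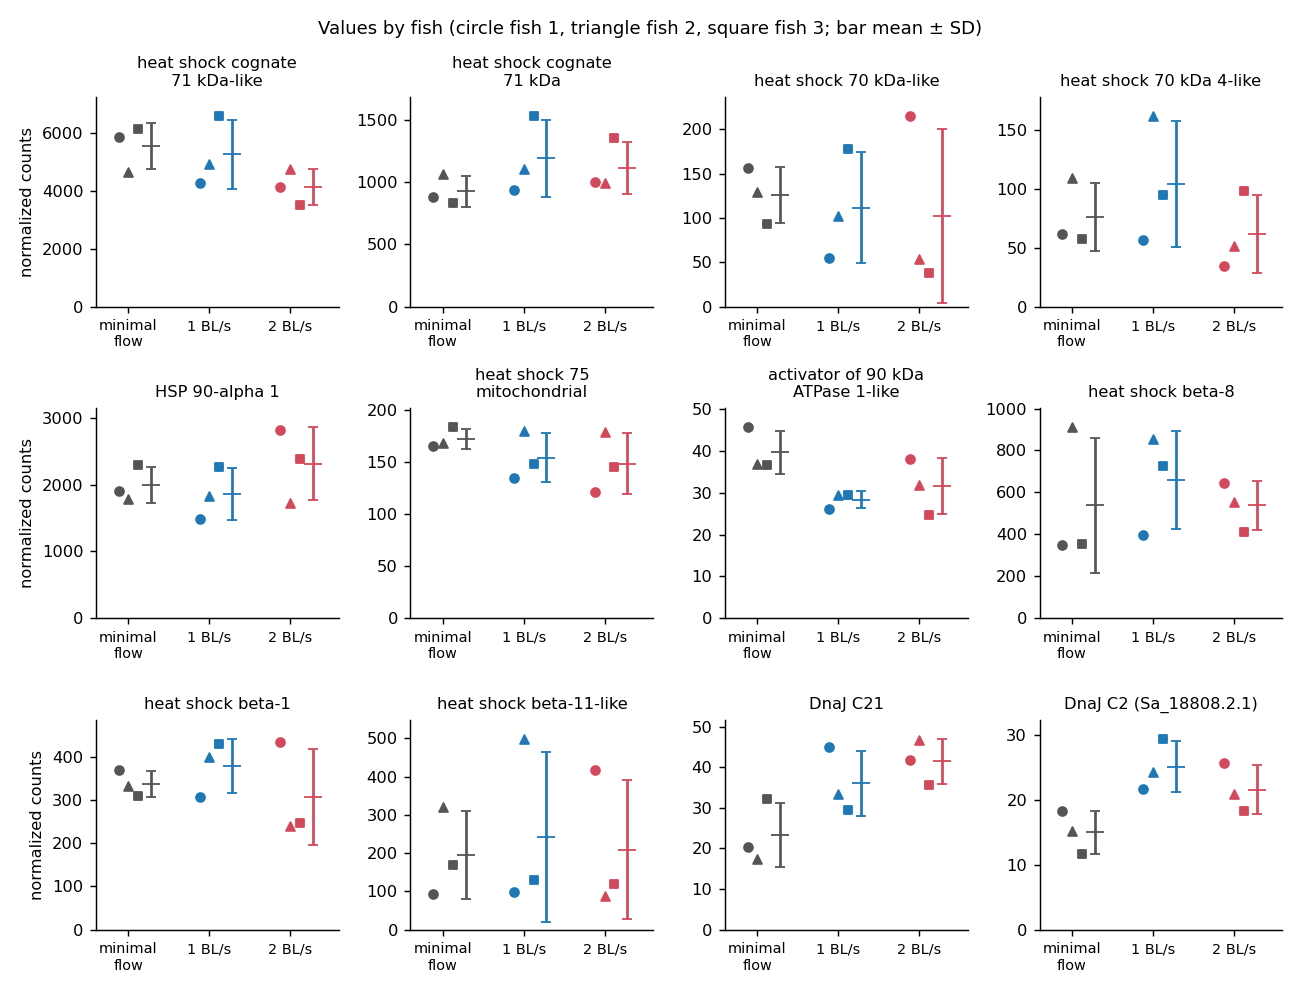
Normalized counts of 12 members (vertical axes from 0) in each fish (circle fish 1, triangle fish 2, square fish 3) at minimal flow, in the 1 BL and 2 BL groups, with mean ± SD (n = 3). Heat shock cognate 71 kDa-like was lower on average in the 2 BL group with overlap, DnaJ C21 was higher in the 2 BL group without overlap with the controls, and heat shock 70 kDa-like and beta-11-like ranged most between fish of a group.

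In the 90 kDa class the muscle-type member was HSP 90-alpha 1 (Sa_26357.4.1), whose zebrafish counterpart is required for the assembly of myosin filaments. It had 1908, 1788 and 2301 normalized counts in control fish, 1488, 1828 and 2258 in the 1 BL group and 2815, 1727 and 2392 in the 2 BL group. Fish 1 and 3 in the 2 BL group were the highest of all fish, while fish 2 of that group was lower than every control. The log2 fold change was 0.22 (SE 0.20, edgeR adjusted p = 0.996) for 2 BL group vs. control fish, -0.13 (SE 0.21, edgeR adjusted p = 0.972) for 1 BL group vs. control fish and 0.36 (SE 0.24, edgeR adjusted p = 0.897) for 2 BL vs. 1 BL group. With the first cognate this member made up 42.2% of the fragments of all members. Heat shock 75 mitochondrial (Sa_40193.4.1), the 90 kDa form of mitochondria also known as TRAP1, had 165, 168 and 183 in control fish, 134, 180 and 149 in the 1 BL group and 121, 179 and 145 in the 2 BL group. The groups overlapped, as fish 2 at either speed lay within the range of the controls. Its log2 fold changes of -0.18 (SE 0.22) and -0.20 (SE 0.22) against the controls did not pass (edgeR adjusted p = 0.972 and adjusted p = 0.996).

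The activators of the 90 kDa ATPase, which speed its cycle, went in opposite directions. The model named homolog 1 (Sa_55186.1.1) had 225, 237 and 208 normalized counts in control fish, 328, 259 and 217 in the 1 BL group and 255, 341 and 206 in the 2 BL group. In each swimming group 2 fish were above all controls and fish 3 was not. Its log2 fold changes were 0.25 (SE 0.24) and 0.27 (SE 0.23) and did not pass (edgeR adjusted p = 0.966 and adjusted p = 0.996). The model named homolog 1-like (Sa_10763.5.1) had 45.6, 36.8 and 36.7 in control fish, 26.0, 29.4 and 29.4 in the 1 BL group and 38.1, 31.8 and 24.7 in the 2 BL group. All 3 fish in the 1 BL group lay below all 3 controls, the one member separated downwards in that comparison, with a mean of 28.3 ± 1.99 against 39.7 ± 5.13 (SD, n = 3). The test gave a log2 fold change of -0.51 (SE 0.28, edgeR adjusted p = 0.966), which did not pass, and in the 2 BL group the groups overlapped.

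Among the DnaJ proteins, which stimulate the ATPase of 70 kDa proteins and bring clients to them, DnaJ C21 (Sa_9482.2.1) was the 1 member that passed the unadjusted threshold. Its relatives in yeast and human cells take part in the assembly of the large ribosomal subunit. Normalized counts were 20.3, 17.3 and 32.2 in control fish, 45.1, 33.5 and 29.4 in the 1 BL group and 41.9, 46.7 and 35.6 in the 2 BL group. Every fish in the 2 BL group was above every control, whereas fish 3 in the 1 BL group was below control fish 3. The mean rose from 23.3 ± 7.88 to 41.4 ± 5.57 in the 2 BL group (SD, n = 3), a log2 fold change of 0.83 (SE 0.32) that passed the unadjusted threshold (edgeR adjusted p = 0.996). At 1 BL/s the log2 fold change was 0.61 (SE 0.36, edgeR adjusted p = 0.966). The call in the 2 BL group was lost with DESeq2, without control fish 1 or 2 and without fish 1 or 2 of the 2 BL group, with log2 fold changes between 0.66 and 1.13 when any 1 fish was left out.

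DnaJ C2, also known as zuotin, sits at the exit of the ribosome, and its 2 tested models share the first part of their identifiers. Sa_18808.2.1 had 18.3, 15.2 and 11.6 normalized counts in control fish, 21.7, 24.4 and 29.4 in the 1 BL group and 25.7, 20.9 and 18.3 in the 2 BL group. All swimming fish were above all controls, in the 2 BL group by a narrow margin between fish 3 and control fish 1. The log2 fold changes were 0.71 (SE 0.35, edgeR adjusted p = 0.966) and 0.54 (SE 0.35, edgeR adjusted p = 0.996), against the same 3 controls. A fit of all 9 fish together gave 0.72 in the 1 BL group, which passed unadjusted (edgeR adjusted p = 0.908). The second model, Sa_18808.3.1, with 15.2 to 38.5 normalized counts in the 9 fish, had log2 fold changes of -0.45 (SE 0.38) and -0.02 (SE 0.34), so that the 2 models did not give 1 direction for the gene.

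DnaJ C5-like (Sa_30212.3.1), a relative of the cysteine string protein of secretory vesicles, had 121, 75.8 and 74.2 normalized counts in control fish, 107, 76.2 and 166 in the 1 BL group and 138, 96.5 and 128 in the 2 BL group. Control fish 2 and 3 were the lowest of the 9 fish and control fish 1 lay within the range of both swimming groups. At 2 BL/s the log2 fold change was 0.43 (SE 0.27, edgeR adjusted p = 0.996), and without control fish 1 it was 0.69 and passed unadjusted (edgeR adjusted p = 0.840). Its range with any 1 fish left out was 0.30 to 0.69. DnaJ C18 (Sa_17066.2.1) was the most even DnaJ protein between fish, with 679 to 800.1 in control fish, 671 to 806 in the 1 BL group and 699 to 749 in the 2 BL group. Its log2 fold changes were -0.02 (SE 0.19) and 0.00 (SE 0.16) against the controls.

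DnaJ C7 (Sa_701.18.1), which binds both 70 and 90 kDa proteins, had 121, 136 and 106 normalized counts in control fish, 107, 82.2 and 107 in the 1 BL group and 154, 108 and 104 in the 2 BL group. Fish 1 in the 2 BL group was highest and fish 2 in the 1 BL group lowest, with log2 fold changes of -0.32 (SE 0.24, edgeR adjusted p = 0.966) in the 1 BL group and 0.02 (SE 0.24, edgeR adjusted p = 0.996) in the 2 BL group. DnaJ C9 (Sa_23283.9.1), known in human cells as a co-chaperone of histones, had 9.13, 6.50 and 13.4 in control fish, 17.3, 11.2 and 17.4 in the 1 BL group and 16.2, 12.9 and 4.57 in the 2 BL group. Its highest and lowest fish were both swimmers, and its log2 fold change in the 1 BL group of 0.62 (SE 0.45, edgeR adjusted p = 0.966) did not pass. DnaJ B1-like (Sa_28753.3.1), of the group that holds the main partner of stress-inducible 70 kDa proteins, was at 23.8 to 34.5 in control fish, 26.4 to 38.1 in the 1 BL group and 23.7 to 54.3 in the 2 BL group, the highest in fish 1. Over the class, 12 of 18 tested DnaJ proteins had a log2 fold change above 0 in the 2 BL group and 11 of 18 in the 1 BL group against the controls (medians 0.13 and 0.13), and 1 and 0 passed. Of all gene models, 1970 of 3947 and 1891 of 3902 were above 0, and 4.46% and 4.02% passed. The class members come from the same fish and library factors and are not separate evidence of a direction. The median in the 1 BL group was 0.00 without fish 3 of that group or without control fish 2 and 0.06 without fish 1 of that group, and that in the 2 BL group was 0.08 without control fish 2 and 0.25 without control fish 3.

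Under the filter, DnaJ A mitochondrial isoform X2 (Sa_10728.5.3) held 14 fragments, 11 of them in the 1 BL group with 4, 3 and 4 in the single fish, 2 in control fish and 1 in the 2 BL group. When no filter was used, its log2 fold change for 2 BL vs. 1 BL group was -3.13 and passed unadjusted (edgeR adjusted p = 0.758). The model was singled out after its values were seen and shares its identifier stem with other models.

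Several small heat shock proteins differed strongly between fish of the same group. Heat shock beta-8 (Sa_29541.2.1), which works with BAG proteins to clear damaged filament proteins in muscle, had 349, 911 and 356 normalized counts in control fish, 399, 855 and 724 in the 1 BL group and 646, 556 and 413 in the 2 BL group. Control fish 2 was the highest of all 9 fish, and the other controls were the lowest. The log2 fold changes were 0.26 (SE 0.42, edgeR adjusted p = 0.972) in the 1 BL group and -0.00 (SE 0.37, edgeR adjusted p = 1) in the 2 BL group. Without control fish 2 they were 0.88 (SE 0.34, edgeR adjusted p = 0.996) and 0.62 (SE 0.24, edgeR adjusted p = 0.966), both past the unadjusted threshold, so 1 control decided whether beta-8 passed. With any 1 fish left out they ranged from -0.01 to 0.88 and from -0.24 to 0.62.

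Heat shock beta-11-like (Sa_14263.2.1) had 93.3, 320.5 and 170 normalized counts in control fish, 98.8, 499 and 131 in the 1 BL group and 418, 88.5 and 120 in the 2 BL group. Each group held 1 fish well above its others, fish 2 in control fish and in the 1 BL group and fish 1 in the 2 BL group. The SD within groups was 1.11 on the log2 scale, higher than that of 96.5% of all tested gene models, and the log2 fold changes of 0.30 (SE 0.63) and 0.10 (SE 0.59) did not pass (edgeR adjusted p = 0.972 and adjusted p = 0.996).

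Heat shock beta-1 (Sa_43458.2.1), the HSP27 type that stabilizes actin, had 369, 332 and 309.5 normalized counts in control fish, 308, 399 and 428 in the 1 BL group and 434, 239 and 247 in the 2 BL group. Fish 1 in the 2 BL group was the highest and the others of its group the lowest of all 9 fish, the arrangement seen for heat shock 70 kDa-like. For 2 BL vs. 1 BL group the log2 fold change was -0.27 (SE 0.28, edgeR adjusted p = 0.908), and without fish 1 in the 2 BL group it was -0.60 and passed unadjusted (edgeR adjusted p = 0.897). Its range with any 1 fish left out was -0.60 to -0.13. Heat shock beta-6 (Sa_18801.2.1), the small form of smooth and striated muscle, was at 21.7 to 34.5 in all 9 fish with log2 fold changes of -0.01 (SE 0.33) and -0.00 (SE 0.31). Beta-7 and beta-7-like, of the type named for heart muscle, were listed at 0 in 3 of 4 models, and the fourth held 3 fragments, all in the single control fish 2. None of the 4 small heat shock proteins tested passed in any comparison with all fish.

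Most subunits of T-complex 1 were highest in the same fish. Subunit gamma (Sa_19690.3.1) had 1471, 1210 and 1521 normalized counts in control fish, 1396, 1589 and 2062 in the 1 BL group and 1448, 1335 and 1176 in the 2 BL group. Subunit beta (Sa_21013.1.1) had 1168, 1065 and 1021, then 1009, 960 and 1633, then 1234, 930 and 912 in the same order of groups and fish. Subunit eta (Sa_47589.1.1) had 1006, 775 and 812, then 803, 821 and 1314, then 923, 751 and 763. In these 3 subunits fish 3 in the 1 BL group was the highest of all fish, and the controls overlapped both swimming groups. Before scaling, that fish held 1541 fragments of gamma, against 1611 and 1565 in fish 1 and 2 of its group. For beta it held 1220, against 1164 and 946, and for eta 982, against 927 and 809. Its library factor thus widened the gap to the other fish of its group.

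Subunit delta (Sa_41734.2.1) was at 1285 in fish 3 in the 1 BL group and at 635 to 1029 in the other 8 fish. The alpha subunit Sa_28243.1.1 was at 869 in that fish and at 395 to 529 in the other 8, which is 1.92 times the mean of the others. For gamma, beta, eta and delta this ratio was 1.48 to 1.58. The second alpha model, Sa_27141.2.1, did not follow, with 443 in fish 3 in the 1 BL group and 374 to 494 in the others (ratio 1.07), and was among the most even of all gene models, with an SD within groups below that of all but 0.943% of them. The same fish stood apart over the whole transcriptome and held the most red blood cell markers, and the part of either in the chaperonin values was not tested.

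**Figure D4:**
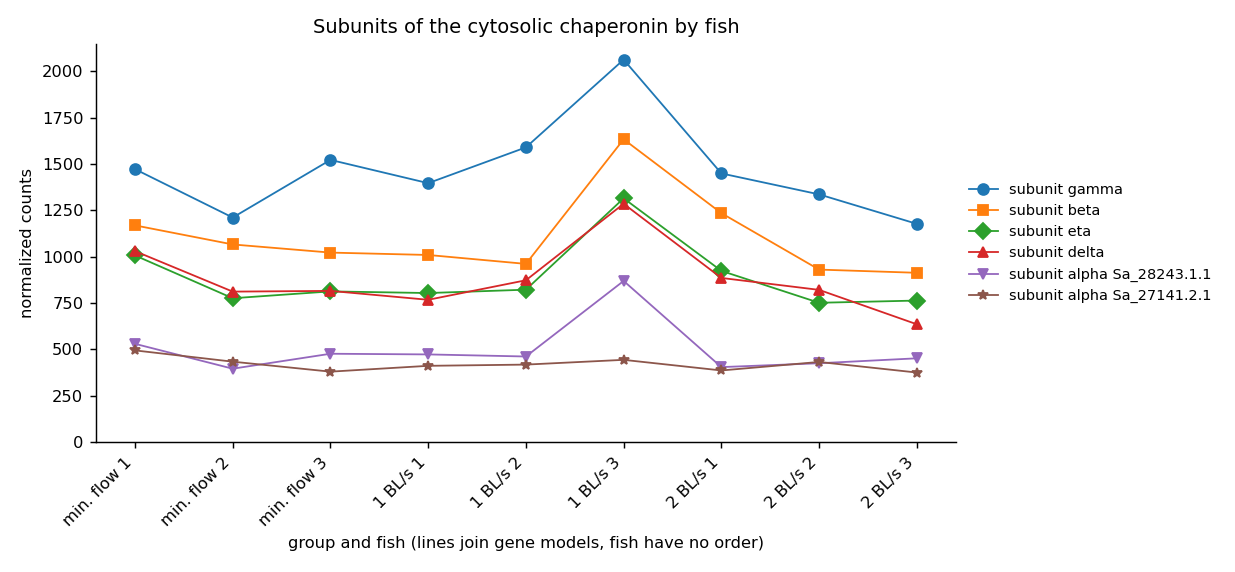
Normalized counts of the 6 subunits of T-complex 1 with counts (vertical axis from 0) in each of the 9 fish (lines join the values of 1 gene model, and the fish of a group have no order). Of the 6 models 5 were highest in fish 3 in the 1 BL group, subunit gamma at 2062, while the alpha model Sa_27141.2.1 was at 443 there and between 374 and 494 elsewhere.

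Against the controls, 5 of 6 subunits had log2 fold changes above 0 in the 1 BL group (median 0.13) and all 6 had values below 0 in the 2 BL group (median -0.10, range -0.17 to -0.07), and none passed. Of all gene models, 1891 of 3902 were above 0 in the 1 BL group and 1977 of 3947 below 0 in the 2 BL group. With 1 fish left out, the median in the 1 BL group ranged from -0.08 (without fish 3 of that group) to 0.26 (without control fish 1). In the 2 BL group it ranged from -0.16 to -0.03, and without control fish 1, which gave the last value, the subunits lay between -0.06 and 0.03. With DESeq2's size factors in edgeR the 2 BL median was -0.11. Each of these fits scaled by library factors, and scaling by total counts was not tested. By share of total counts, members as a whole ran the other way, with 0.365% in control fish and 0.397% in the 2 BL group. The subunits did so too, as each had a higher mean share of total counts in the 2 BL group than in control fish. Subunit gamma held 1451, 1118 and 1701 fragments out of 4820369, 3969381 and 5267310 counts in control fish. In the 2 BL group it held 1521, 1343 and 1288 out of 4605448, 3660245 and 4165037. The direction of the subunits in the 2 BL group thus depended on the scaling. For 2 BL vs. 1 BL group all 6 were below 0 (median -0.25), and without fish 3 in the 1 BL group the median was -0.06 and the highest subunit at 0.06. The alpha subunit Sa_28243.1.1 was the one member separated in that comparison, with 461 to 869 in the 1 BL group and 404 to 451 in the 2 BL group (log2 fold change -0.44, SE 0.26, edgeR adjusted p = 0.897), and -0.12 without fish 3. Summed over the subunits, normalized counts were 4690 to 5698 in control fish, 4857, 5121 and 7605 in the 1 BL group and 4312 to 5280 in the 2 BL group.

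Unc-45 proteins and the heat shock factors did not pass the filter on low counts. Unc-45 homolog A (Sa_4522.7.1), the general form of this myosin chaperone family, held 11, 6 and 10 fragments in control fish, 10, 8 and 8 in the 1 BL group and 4, 2 and 8 in the 2 BL group. Fish 1 and 2 in the 2 BL group were the lowest, and fish 3 of that group lay above control fish 2. Heat shock factor-binding 1 (Sa_19947.2.1), which restrains heat shock factor 1, held 0 to 2 fragments per fish and 11 in all, and heat shock factor 4 held 2 in all. DESeq2, which was run without that filter, gave unc-45 homolog A log2 fold changes of -1.01 (SE 0.89) for 2 BL group vs. control fish, -1.05 (SE 0.89) for 2 BL vs. 1 BL group and 0.02 (SE 0.73) for 1 BL group vs. control fish, each with a DESeq2 adjusted p of 1.00. With DESeq2 and with edgeR without the filter, 0 of the 4 or 5 unc-45 proteins, heat shock factors and binding proteins with counts passed unadjusted in any comparison. Of all gene models, 1.23% to 1.3% passed with DESeq2 and 3.99% to 4.72% with edgeR without the filter. Apart from unc-45 homolog A these models held 1 to 11 fragments each over 9 fish. Hardly any difference could pass at such counts, so nothing is concluded from this.

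Over all members tested, single fish stood out. Fish 3 in the 1 BL group had the highest value of the 9 fish for 16 of 38 members (42.1%), against 23.5% of 4190 gene models tested in any comparison. Fish 1 in the 2 BL group was highest for 7 members (18.4%, against 11.9%), among them HSP 90-alpha 1, heat shock 70 kDa-like, beta-1, DnaJ B1-like and DnaJ C7. Fish 3 in the 2 BL group was lowest for 11 members (28.9%, against 8.28%) and highest for 0. These ranks use the library factors. As a share of all counts, members were at 0.381% in that fish and at 0.359% to 0.371% in control fish. In fish 3 in the 1 BL group they were at 0.389%, within the 0.347% to 0.419% of all fish. The median deviation of the members from their own mean over 9 fish, on the log2 scale, was 0.22 in fish 3 in the 1 BL group, 0.20 in fish 1 in the 2 BL group and -0.12 to 0.08 in the other fish. Many members were nonetheless even, as 19 of 38 had an SD within groups below the 25th percentile of all tested gene models and 3 had one above the 75th, namely heat shock 70 kDa-like, 70 kDa 4-like and beta-11-like. This spread falls with the count of a gene model and is given as a description.

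**Figure D5:**
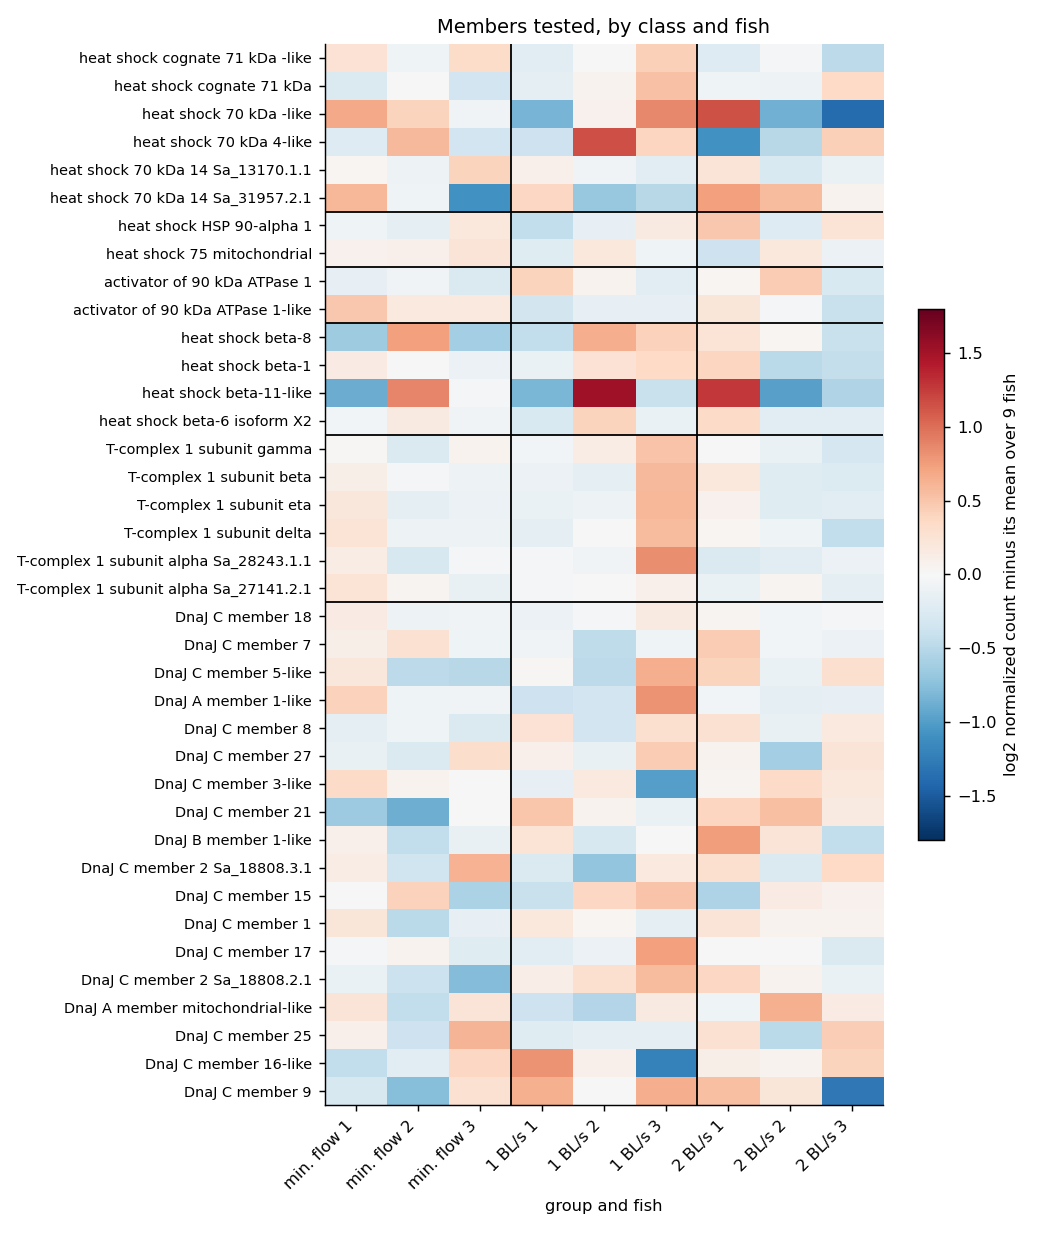
Log2 normalized count of each of the 38 members tested minus its mean over the 9 fish (colour, red higher and blue lower), with members in rows by class and fish in columns by group. The column of fish 3 in the 1 BL group is red for 5 of 6 subunits of T-complex 1, and heat shock 70 kDa-like and beta-11-like have the strongest colours, which change between fish of the same group.

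Partners of these chaperones, taken from a list of descriptions, were tested in the same fits. The list held 127 gene models, of which 41 had counts and 23 were tested. Prefoldin subunit 4 (Sa_28408.1.1) is part of the complex that hands actin and tubulin to T-complex 1. It was the 1 of 23 partners that passed unadjusted for 1 BL group vs. control fish with edgeR and the filter, when 4.02% of all gene models did. Its mean was 75.9 ± 29.9 normalized counts in control fish and 134 ± 32.7 in the 1 BL group (SD, n = 3, log2 fold change 0.78, SE 0.32, edgeR adjusted p = 0.966). Single fish were at 54.8, 62.8 and 110 in control fish and at 113, 117 and 171 in the 1 BL group. The other prefoldin subunits tested, 1, 2, 3 and 6, did not pass. Like subunit 4 they were highest in fish 3 in the 1 BL group, at 178, 206, 510 and 72.3. At 2 BL/s subunit 4 was at 82.5 ± 36.8. For 2 BL group vs. control fish and for 2 BL vs. 1 BL group, 0 of 23 partners passed unadjusted with edgeR, against 4.46% and 4.24% of all gene models. DESeq2, run without the filter, called 1 of 39, 0 of 40 and 1 of 40 partners in the 3 comparisons. The shares of all gene models with DESeq2 were 1.29%, 1.23% and 1.3%. Without the filter edgeR called 2 of 39 partners for 1 BL group vs. control fish, 2 of 40 for 2 BL group vs. control fish and 3 of 40 for 2 BL vs. 1 BL group, when 3.99%, 4.19% and 4.72% of all gene models passed. The median log2 fold changes of the list were 0.03, 0.03 and 0.08 in the 3 comparisons. Stress-induced-phospho 1 (Sa_11840.2.1), which links 70 and 90 kDa proteins, was at 541 ± 85.9, 548 ± 136 and 521 ± 66.0 in control fish, in the 1 BL group and in the 2 BL group. SMYD1 (Sa_18608.3.1), a methyltransferase that acts with the 90 kDa protein on myosin in zebrafish muscle, was at 21.7 ± 3.29, 25.3 ± 6.43 and 30.1 ± 3.57 and did not pass (edgeR adjusted p = 0.996 for 2 BL group vs. control fish).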

How the data were processed

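The study's methods and the processing notes of the submitters describe RNAseq of white muscle from 9 fish. The authors made stranded mRNA libraries, aligned the read pairs with TopHat2 2.0.13, removed secondary alignments with SAMtools 1.2 and used HTSeq 0.6.1p1 to count fragments for each gene model. The reference was a seabream assembly at NCBI that the methods give by a link. Its name, the strand setting and the counting of reads that match several places equally were not stated by any source used here, so near-identical or antisense gene models are uncertain. The deposited counts are the authors' raw counts, with no normalization, in 1 table per pair of groups. These tables also hold the authors' normalized means, fold changes and p-values from DESeq, which were not used, and 2 columns without a sample label were left out. Where 2 tables hold a fish, 0 of its counts differed.

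Groups and fish numbers were taken from the sample labels. The test was edgeR 4.0.16 under R 4.3.3 (quasi-likelihood, TMM, filterByExpr, Benjamini-Hochberg adjustment over all gene models tested) on the 6 fish of each comparison, checked on simulated counts. The unadjusted threshold was 0.05. SE is the size of the log2 fold change divided by the root of the F statistic. Principal components were computed on log2 CPM with a prior count of 2. Values are given for members past the unadjusted threshold, the 3 members with the most counts per class (10 or more in total) and the 5 with the smallest p in each comparison, and any other member was singled out after its values were seen. Alternatives were DESeq2 1.42.0, its size factors in edgeR, no low-count filter, a replicate block, all 9 fish in one fit and leaving out each fish. The members, classes, partner list and marker lists were chosen with earlier results of these data known. Tables and plots were made in Python 3.11.15 with pandas 2.3.3 and matplotlib 3.10.9. With 1 tank per group, p-values measure only the spread between fish of a tank.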

Additional observations from a re-analysis of the deposited data

How the results depend on the processing

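No member passed an adjusted p of 0.05 under any alternative. Members past the unadjusted threshold were 0, 2 and 0 in the comparisons of the 1 BL group with the controls, the 2 BL group with the controls and both swimming groups with each other. A fit of all 9 fish gave 1, 1 and 0, when 5.09%, 3.44% and 4.86% of all gene models passed. DESeq2 gave 0, 1 and 0, against 1.29%, 1.23% and 1.3% of all gene models. Without the low-count filter edgeR gave 0, 2 and 2, against 3.99%, 4.19% and 4.72%. Leaving out 1 fish at a time gave 0 to 1, 1 to 2 and 0 to 3. No share of all gene models is given for these fits, so these counts cannot be set against a background. The filter was applied anew in each of them, so the members tested were not always the same 38. Heat shock 70 kDa 12A isoform X7 was tested and passed unadjusted without fish 1 in the 2 BL group. It entered those fits only through its values in the other fish of that group, so its call is no support for a difference. Fish numbers are shared by the groups but did not pair the fish (correlations of same-numbered fish -0.03 to 0.18). A replicate block gave 0, 2 and 0 members and 3, 0 and 0 of 23 partners, against 4.13%, 4.64% and 4.49% of all gene models. Heat shock cognate 71 kDa-like passed for 2 BL group vs. control fish with the replicate block and DESeq2 but not in the fit of all 9 fish. The median log2 fold change of the 38 members ranged, with 1 fish left out, from -0.01 to 0.18, from -0.08 to 0.06 and from -0.13 to 0.03. The cause of these changes was not tested. With 3 fish per group, only the larger differences could pass. The 28 members with at most 78 fragments did not pass the filter when all fish of the groups compared were used.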
